A study of Homo sapiens with 6 samples.

Results

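Interferon-stimulated genes are the genes that cells switch on when interferon binds its receptors. Receptor-bound JAK kinases activate STAT proteins, which join IRF9 in a complex that binds the interferon-stimulated response element (ISRE) in promoters, while IRF1 and IRF7 can act on similar sites. The proteins made from these genes sense viral RNA, block virus entry and replication, or tag proteins with the ubiquitin-like ISG15, and liver cells make them in response to hepatitis viruses. Here 45 such genes were chosen by name from a table of 58174 genes, and all 45 were found, each once.

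The study compared 3 samples of cells labelled Huh-7 given miR-27a-3p mimics (synthetic RNA duplexes that act as the mature microRNA) with 3 samples of the same cells transfected with a negative control called NC, whose sequence the labels do not give. All 6 were transfected with a Lipofectamine reagent and harvested at 48 h. The labels name no interferon, virus or drug given to the cells. Expression is in FPKM (fragments per kilobase of gene, scaled to library size), which compares genes per unit of length and is relative to the rest of the library. Whether replicates were independent cultures is not stated, so each p-value reflects the variation among these libraries, which may be technical.

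Huh-7 is an established human liver cancer line, but the usual hepatocyte markers were low or absent in these libraries. All 15 hepatocyte genes examined averaged under 1 FPKM, ALB (albumin) was listed at 0 in 5 of the 6 samples, and AFP (alpha-fetoprotein) was at most 0.0237 FPKM. HNF4A, a hepatocyte transcription factor, was at 0.757 to 0.980 FPKM in mimic samples and 0.129 to 0.246 FPKM in controls. SERPINA1, which encodes alpha-1 antitrypsin, was at 0.0787 to 0.276 FPKM in mimic samples and 0.708 to 1.49 FPKM in controls. The summed level of the 15 genes was 0.930 to 1.27 FPKM in mimic samples and 1.20 to 2.17 FPKM in controls. These marker levels therefore do not bear out the liver origin that the Huh-7 label implies, and "cells labelled Huh-7" is used throughout.

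Most markers of other cell types were also low, with CD68, COL1A1 and ACTA2 as exceptions. COL1A1 averaged 7.99 FPKM in mimic samples and 17.4 FPKM in controls, ACTA2 11.6 and 18.2, and CD68 16.2 and 8.17. Of 11 leukocyte genes only CD68, which many cells use in their lysosomes, averaged at least 1 FPKM, and PTPRC, the pan-leukocyte marker, was at most 0.0184 FPKM. The leukocyte list summed to 11.4 to 19.5 FPKM in mimic samples and 9.08 to 10.8 FPKM in controls, with MS4A1 and CD8A at 0 in all samples. All 5 endothelial genes averaged under 1 FPKM, with KDR at 0 in all samples, and summed to 0.535 to 0.854 FPKM in mimic samples and 1.42 to 2.94 FPKM in controls. The 7 fibroblast genes summed to 19.9 to 21.5 FPKM in mimic samples and 33.3 to 39.0 FPKM in controls, carried by COL1A1 and ACTA2, while none of the 7 was at 0 throughout. Mitochondrial genes took 14.6% to 38.9% of summed FPKM in mimic samples and 16.9% to 32.8% in controls, and sample 3 was the highest in both groups. Read numbers are not given; a pile-up of low values at the level that 1 fragment would give implies about 25263877 to 31081359 fragments in mimic samples and 17080477 to 21256903 in controls. Genes at 1 FPKM or more numbered 13007 to 13250 in mimic samples and 15109 to 15494 in controls. The part of marker levels, this number of genes, mitochondrial share or depth in the results below was not tested.

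The mature microRNA that the mimics imitate is shown because its seed, capitalised here as bases 2 to 8, defines the sites sought in the members' transcripts. It is encoded at chr19:13836447-13836467 (GRCh38.p14, minus strand, RefSeq).
hsa-miR-27a-3p: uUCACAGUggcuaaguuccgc

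Many of the 45 genes were expressed in these cells. No untransfected cells were sampled, so their levels before transfection are not known. Over the 6 samples 7 members averaged at least 100 FPKM (IFITM3, IFI6, ISG15, IFITM2, IFITM1, BST2 and IFIT1), 24 averaged from 10 to under 100, 11 from 1 to under 10, and 3 under 1 FPKM (MX2, HERC6 and CMPK2). Those 3 fell below the filter of a mean of 1 FPKM, so 42 of the 45 were tested among 14439 genes.

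**Figure D1:**
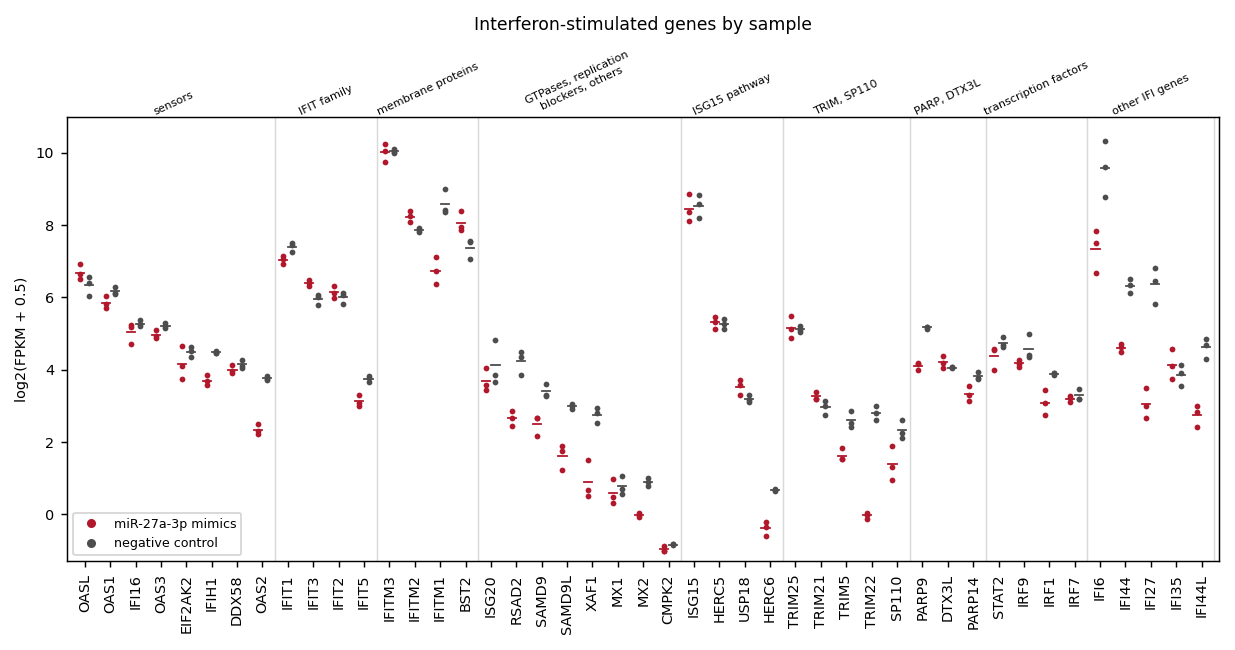
Expression of the 45 interferon-stimulated genes as log2(FPKM + 0.5) on the vertical axis, grouped by role and ordered by mean level, with 1 point per sample, mimic samples (red) left of controls (grey) and a line at each group mean. IFI27, TRIM22, IFI6 and IFITM1 show wide gaps between the groups, while ISG15, IFITM3 and HERC5 overlap.

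Of the 42 tested members, 18 were lower and 2 higher in mimic samples by limma (adjusted p at most 0.05, Benjamini-Hochberg over all 14439 genes). Among all genes tested, of every gene type, 39.6% were lower and 12.0% higher. The members' share of lower calls (42.9%) was near that of all genes and their share of higher calls (4.76%) was below it. All 42 members have an annotated 3′ UTR. Of tested genes with one, fewer were lower, at 37.6% with a match to the microRNA seed and 30.4% without. The members' share lay above both. The members' median log2 fold change was -0.36, against -0.29 for all genes tested. With the filter at a mean of 5 FPKM these medians were -0.33 and -0.13. That filter left 9456 genes, of which 2916 were lower and 1438 higher. Fewer than 42 members passed it, and 14 of them were lower and 2 higher. Their middle 50% ran from -1.04 to 0.02, against -0.82 to 0.17 for all genes. Falls of at least 2-fold were called in 11 of the 42 members, against 18.5% of all genes, and rises of that size in none, against 2.47%. In 23 members all mimic samples lay below all controls, and in 5 all lay above, against 44.3% and 16.2% of all genes.

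**Figure D2:**
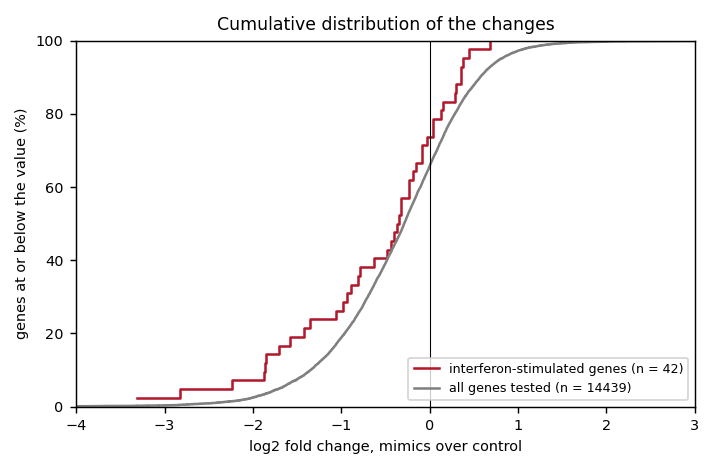
Cumulative share of genes (vertical axis, percent) at or below each log2 fold change, mimics over control (horizontal axis), for the 42 tested interferon-stimulated genes (red) and all 14439 genes tested (grey). Both medians lie below 0, at -0.36 for the members and -0.29 for all genes, and the members' curve lies higher at the left, with IFI27 at -3.31 as its lowest value.

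Because the whole set of tested genes was shifted down by 0.29 on the log2 scale, directions smaller than that depend on the scale chosen. Median-of-ratios scaling over the tested genes, which brings their median to 0.01, left 16 members lower and 10 higher, against 27.4% and 26.9% of all genes. Quantile normalization gave 17 lower and 4 higher members, against 22.8% and 24.9% of all genes. Removal of trends with GC content and transcript length gave 14 lower and 11 higher, against 23.5% and 26.7%. Median-of-ratios scaling over all genes above 0 in every sample, which brings the median of the tested genes to 0.17, gave 12 lower and 13 higher, against 21.6% and 35.0%. On the deposited scale and each of 5 other scalings, 12 members were called lower (IFI27, TRIM22, IFI6, IFI44L, XAF1, IFITM1, IFI44, RSAD2, OAS2, SAMD9L, PARP9 and TRIM5). IFIT3 and BST2 were called higher on all 6, and no member was called in both directions. The share of all genes called the same way on all 6 scalings was not worked out. Whether members were called on all 6 more often than other genes was therefore not tested. Because calls depended on the scale, the members were described individually, by role. Counts within a role are to be read beside the 39.6% of all genes lower and 12.0% higher on the deposited scale.

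**Figure D3:**
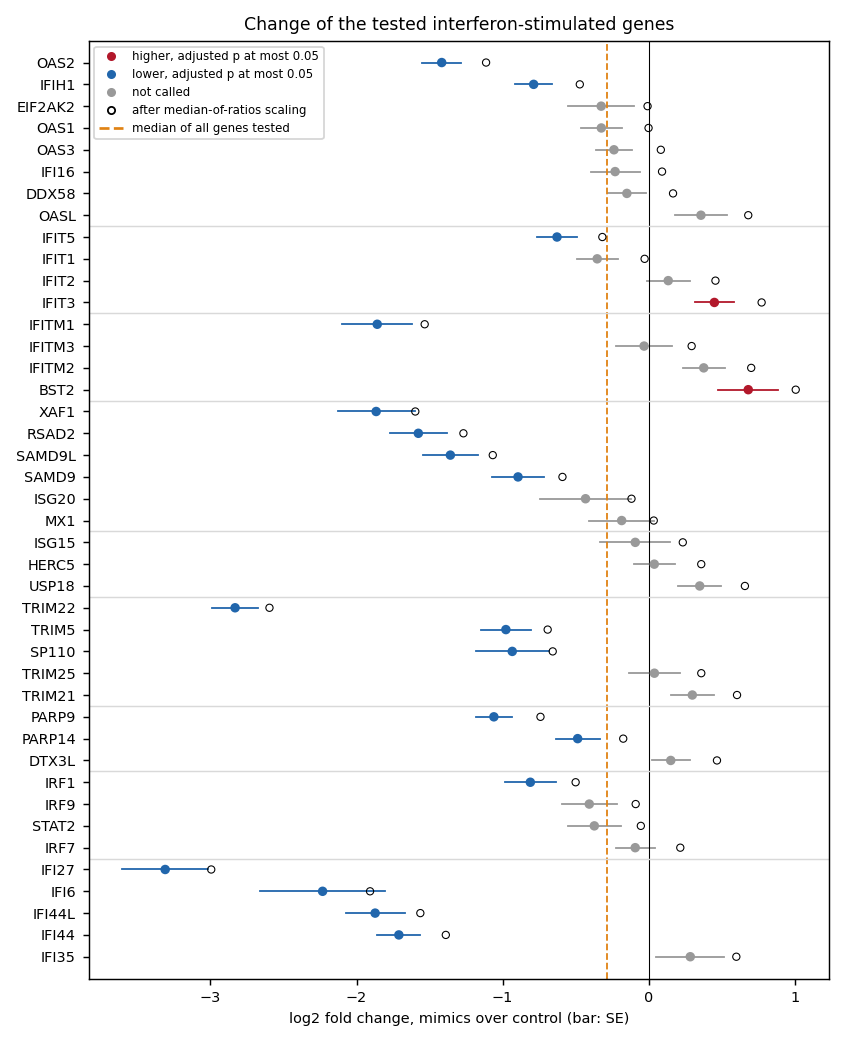
Log2 fold change of the 42 tested members, mimics over control (horizontal axis), with SE bars on the deposited scale, grouped by role in the order sensors, IFIT family, membrane proteins, replication blockers, ISG15 pathway, TRIM and SP110, PARP and DTX3L, transcription factors and other IFI genes. Open circles give the value after median-of-ratios scaling and the dashed line the median of all genes tested at -0.29; most uncalled members lie within 0.4 of 0 on the deposited scale.

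Among the nucleic acid sensors, OAS2 and IFIH1 fell and the other 6 did not pass the test. OAS2, which makes the second messenger that activates RNase L, was at 4.47, 5.17 and 4.16 FPKM in mimic samples 1, 2 and 3, against 13.8, 12.8 and 12.6 FPKM in control samples 1, 2 and 3. Every mimic sample lay below every control, with a log2 fold change of -1.42 (SE 0.13, limma adjusted p = 0.000114). IFIH1, which encodes the sensor of long double-stranded RNA MDA5, was at 11.3, 13.9 and 12.3 FPKM in mimic samples, against 22.5, 21.7 and 21.4 FPKM in controls. The groups did not overlap (-0.79, SE 0.13, limma adjusted p = 0.00134), but the call was lost after median-of-ratios scaling over all genes above 0 in every sample (-0.30, adjusted p = 0.0564).

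OASL, which binds RIG-I and enhances its signalling, had the highest level of the sensors, with 119.8, 99.8 and 90.3 FPKM in mimic samples and 93.9, 83.2 and 65.5 FPKM in controls. Its groups overlapped and its log2 fold change was 0.36 (SE 0.18, limma adjusted p = 0.127), although median-of-ratios scaling over the tested genes called it higher (0.68, adjusted p = 0.00508). DDX58, which encodes RIG-I itself, averaged 15.5 ± 1.37 FPKM in mimic samples and 17.3 ± 1.43 FPKM in controls (SD, n = 3 each), a log2 fold change of -0.15 (SE 0.13, limma adjusted p = 0.372). The direction of DDX58 turned with the scale, and it was called higher after median-of-ratios scaling over all genes above 0 in every sample (0.34, adjusted p = 0.0336) and after GC and length correction (0.32, adjusted p = 0.0282). OAS1 ran from 51.4 to 65.4 FPKM in mimic samples and from 67.9 to 77.8 FPKM in controls, and OAS3 from 28.96 to 33.7 FPKM in mimic samples and from 34.9 to 38.7 FPKM in controls. Neither passed the test on the deposited scale (adjusted p = 0.0872 for OAS1 and 0.146 for OAS3 by limma), though OAS1 did without mimic sample 1 (0.0300). OAS1 was also called lower on 2 of the 6 scalings, for example after quantile normalization (-0.39, limma adjusted p = 0.0152). IFI16, a sensor of DNA, had a log2 fold change of -0.23 (SE 0.17). EIF2AK2, the kinase PKR that halts translation on binding double-stranded RNA, had one of -0.33 (SE 0.23, adjusted p = 0.259 by limma). Mimic samples spanned 12.8 to 24.8 FPKM for EIF2AK2, around the controls at 19.8 to 24.3 FPKM, and without mimic sample 2 its adjusted p was 0.0380 (-0.57).

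The IFIT genes encode tetratricopeptide proteins that bind foreign RNA ends, and their 4 members divided. IFIT3 was at 83.1, 89.5 and 79.5 FPKM in mimic samples, against 66.5, 63.9 and 54.3 FPKM in controls. All mimic samples were above all controls (log2 fold change 0.45, SE 0.14, limma adjusted p = 0.0235). The call was lost without mimic sample 2 (adjusted p = 0.0805), without control sample 2 (0.0559) or without control sample 3 (0.0773). IFIT5 fell, with 7.96, 9.30 and 7.51 FPKM in mimic samples and 13.8, 13.1 and 12.1 FPKM in controls (-0.63, SE 0.14, limma adjusted p = 0.00526). That fall was not called after median-of-ratios scaling over all genes above 0 in every sample (-0.15, adjusted p = 0.255) or after GC and length correction (-0.10, adjusted p = 0.385). IFIT1 was the most abundant, with 133.8, 140.2 and 121.5 FPKM in mimic samples and 181.8, 172.9 and 151.5 FPKM in controls. Its mimic samples were all below its controls without passing the test (-0.35, SE 0.14, limma adjusted p = 0.0653). IFIT1 was called lower on 2 of the 6 scalings, for example after quantile normalization (-0.43, limma adjusted p = 0.0135). IFIT2 overlapped, from 63.1 to 78.7 FPKM in mimic samples and from 56.0 to 69.7 FPKM in controls (0.13, SE 0.15), but was called higher after median-of-ratios scaling over the tested genes (0.46, adjusted p = 0.00956).

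Of the membrane proteins that restrict virus entry or release, IFITM1 fell and BST2 rose. IFITM1 was at 82.3, 137.7 and 105.0 FPKM in mimic samples, against 507.0, 330.3 and 341.9 FPKM in controls. Its groups were far apart (log2 fold change -1.86, SE 0.24, limma adjusted p = 0.000427). BST2, the tetherin that holds budding virions at the cell surface, was at 333.1, 245.5 and 231.8 FPKM in mimic samples and 183.9, 188.3 and 132.3 FPKM in controls. All mimic samples were above all controls (0.68, SE 0.20, limma adjusted p = 0.0225). The BST2 call was lost without mimic sample 2 (adjusted p = 0.0501), without control sample 3 (0.0725) or with no filter on low values (0.0505). IFITM3, which traps viruses in endosomes, was the most abundant member, at 849.1, 1219 and 1057 FPKM in mimic samples and 1108, 1035 and 1019 FPKM in controls. Its controls lay within the range of its mimic samples (-0.03, SE 0.19, limma adjusted p = 0.901). IFITM2, a close relative, ran from 269.0 to 331.8 FPKM in mimic samples and from 222.0 to 239.4 FPKM in controls. It did not pass the test on the deposited scale (0.38, SE 0.14, limma adjusted p = 0.0569), and did without mimic sample 1 (0.0200) and after median-of-ratios scaling over the tested genes (0.70, adjusted p = 0.00697). IFITM1, IFITM2 and IFITM3 are similar in sequence and the file's intervals of IFITM1 and IFITM2 overlap on the same strand, so the division of reads among them is uncertain.

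In the group of GTPases, replication blockers and other effectors, 4 of 6 tested members fell and none rose. Of all genes tested 39.6% were lower and 12.0% higher. RSAD2, which makes viperin, an enzyme that produces a chain-terminating nucleotide, was at 6.72, 5.84 and 4.96 FPKM in mimic samples, against 21.99, 19.8 and 14.0 FPKM in controls (log2 fold change -1.58, SE 0.19, limma adjusted p = 0.000348). XAF1, a pro-apoptotic antagonist of XIAP, was at 0.931, 2.35 and 1.08 FPKM in mimic samples, against 6.51, 7.16 and 5.31 FPKM in controls (-1.87, SE 0.26, limma adjusted p = 0.000687). SAMD9L, which restricts poxviruses, was at 1.86, 3.25 and 2.86 FPKM in mimic samples, against 7.49, 7.03 and 7.78 FPKM in controls (-1.36, SE 0.19). In all 3 genes the groups were separate. Its neighbour SAMD9 also fell (-0.89, SE 0.18, limma adjusted p = 0.00367), but not after GC and length correction (-0.27, adjusted p = 0.208) or quantile normalization (-0.54, adjusted p = 0.0557).

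ISG20, an exonuclease that degrades RNA, was at 11.5, 15.9 and 10.4 FPKM in mimic samples and 27.99, 14.1 and 12.3 FPKM in controls. Control sample 1 stood apart, the groups overlapped, and the log2 fold change of -0.43 had an SE of 0.31. MX1, a GTPase that blocks many RNA viruses, is often used as a marker of interferon response, and was low here at 0.750 to 1.47 FPKM in mimic samples and 0.980 to 1.58 FPKM in controls (-0.19, SE 0.22). MX2, which restricts HIV, was below the filter, at 0.460 to 0.522 FPKM in mimic samples and 1.22 to 1.498 FPKM in controls. With no filter on low values it was lower (-0.91, SE 0.12, limma adjusted p = 0.00325). CMPK2, a mitochondrial nucleotide kinase, was listed at 0, 0.0414 and 0 FPKM in mimic samples and 0.0634, 0.0639 and 0.0536 FPKM in controls.

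The ISG15 pathway had no called member. ISG15 was at 462.3, 331.4 and 276.8 FPKM in mimic samples and 455.3, 385.1 and 293.1 FPKM in controls. The groups covered nearly the same range, with sample 1 highest and sample 3 lowest in both, and the log2 fold change was -0.09 (SE 0.24, limma adjusted p = 0.769). HERC5, the ligase that attaches ISG15, ran from 34.6 to 43.6 FPKM in mimic samples and from 34.8 to 41.8 FPKM in controls (0.04, SE 0.14). USP18, which removes ISG15 and restrains the interferon receptor, ran from 9.37 to 12.7 FPKM in mimic samples and from 8.08 to 9.35 FPKM in controls. Its difference did not pass the test on the deposited scale (0.35, SE 0.15, limma adjusted p = 0.0816), and did on the 5 other scalings, for example after quantile normalization (0.65, adjusted p = 0.00344), and without mimic sample 3 (0.0302). HERC5 was likewise called higher after median-of-ratios scaling over the tested genes (0.36, adjusted p = 0.0204). HERC6, below the filter, was at 0.156 to 0.364 FPKM in mimic samples and 1.06 to 1.13 FPKM in controls, and was lower with no filter on low values (-1.06, SE 0.14, limma adjusted p = 0.00331).

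Among the TRIM proteins, TRIM22 and TRIM5 fell while TRIM21 and TRIM25 did not pass the test. TRIM22, a nuclear and cytoplasmic ubiquitin ligase with activity against HIV, was at 0.418, 0.499 and 0.537 FPKM in mimic samples, against 7.46, 6.52 and 5.63 FPKM in controls. It had the smallest adjusted p of the members (log2 fold change -2.83, SE 0.16, limma adjusted p = 1.79e-05). TRIM5, which recognises retroviral capsids, was at 2.38, 3.05 and 2.37 FPKM in mimic samples, against 6.82, 4.80 and 5.26 FPKM in controls (-0.98, SE 0.17, limma adjusted p = 0.00208). SP110, a nuclear body protein, was at 1.45, 3.19 and 2.01 FPKM in mimic samples, against 4.27, 3.82 and 5.60 FPKM in controls. Its fall (-0.93, SE 0.25, limma adjusted p = 0.0137) was not called after median-of-ratios scaling over the tested genes (-0.66, adjusted p = 0.0685), quantile normalization (-0.37, adjusted p = 0.257) or GC and length correction (-0.63, adjusted p = 0.0787), or without sample 3 of both groups (-0.76, adjusted p = 0.115). TRIM25, the ligase that helps RIG-I signal, was at 34.5, 44.2 and 28.7 FPKM in mimic samples and 36.6, 32.4 and 34.0 FPKM in controls (0.04, SE 0.17). It was called higher after median-of-ratios scaling over all genes above 0 in every sample (0.53, adjusted p = 0.0142). TRIM21, an intracellular antibody receptor, ran from 8.61 to 10.0 FPKM in mimic samples and from 6.28 to 8.25 FPKM in controls. TRIM21 did not pass on the deposited scale (0.30, SE 0.15, limma adjusted p = 0.119), and was called higher after median-of-ratios scaling over the tested genes (0.60, adjusted p = 0.0116) and quantile normalization (0.63, adjusted p = 0.0126).

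PARP9 and DTX3L make a complex of an ADP-ribosyltransferase-like protein and a ubiquitin ligase, and of these PARP9 fell while DTX3L did not pass the test. PARP9 was at 15.3, 17.3 and 17.7 FPKM in mimic samples, against 36.0, 35.8 and 34.7 FPKM in controls (log2 fold change -1.06, SE 0.12, limma adjusted p = 0.000269). DTX3L ran from 16.2 to 20.3 FPKM in mimic samples and from 15.96 to 16.3 FPKM in controls, with overlap (0.15, SE 0.13, limma adjusted p = 0.363). After median-of-ratios scaling over the tested genes DTX3L was called higher (0.47, adjusted p = 0.0154) while PARP9 was still called lower (-0.74, adjusted p = 0.00225). PARP14, a mono-ADP-ribosyltransferase, was at 8.22, 11.2 and 9.46 FPKM in mimic samples, against 14.9, 13.0 and 12.9 FPKM in controls. Its groups did not overlap, but its call was lost in 10 of 18 alternatives (-0.49, SE 0.15, limma adjusted p = 0.0254). It was lost after median-of-ratios scaling over the tested genes (-0.17, adjusted p = 0.322), and without mimic sample 1 (0.0626), mimic sample 3 (0.0550), control sample 1 (0.0966), control sample 2 (0.0554) or sample 3 of both groups (0.0844).

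Of the transcription factors, only IRF1 passed the test. IRF1, which activates both interferon genes and their targets, was at 7.91, 10.3 and 6.27 FPKM in mimic samples, against 14.5, 14.6 and 14.1 FPKM in controls. The groups were separate (log2 fold change -0.81, SE 0.18, limma adjusted p = 0.00563), and the call was lost after median-of-ratios scaling over all genes above 0 in every sample (-0.33, adjusted p = 0.0908). STAT2 was at 23.2, 22.8 and 15.6 FPKM in mimic samples and 25.4, 29.8 and 24.0 FPKM in controls (-0.37, SE 0.18, limma adjusted p = 0.120). IRF9, its partner at the ISRE, ran from 16.4 to 19.0 FPKM in mimic samples and from 19.8 to 31.2 FPKM in controls (-0.41, SE 0.19, limma adjusted p = 0.1004). Both had all mimic samples below all controls without passing the test. IRF7, which amplifies interferon production, ran from 8.15 to 9.17 FPKM in mimic samples and from 8.68 to 10.6 FPKM in controls (-0.09, SE 0.13). Its direction also turned with the scale, and it was called higher after median-of-ratios scaling over all genes above 0 in every sample (0.38, adjusted p = 0.0182).

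Of the 5 remaining IFI genes 4 fell, against 39.6% of all genes tested. Among them IFI27 had the largest fall of all members on the log2(FPKM + 0.5) scale. This rank depends on the added 0.5, which is close to the mimic level of TRIM22. TRIM22 averaged 0.485 FPKM in mimic samples and 6.54 FPKM in controls, and IFI27 averaged 8.02 and 85.0 FPKM. IFI27, a mitochondrial protein often used as a readout of interferon signalling, was at 10.8, 5.88 and 7.42 FPKM in mimic samples, against 86.8, 112.7 and 55.5 FPKM in controls (log2 fold change -3.31, SE 0.29, limma adjusted p = 0.000122). IFI6, an endoplasmic reticulum and mitochondrial protein that limits flaviviruses, was at 226.3, 181.3 and 101.8 FPKM in mimic samples, against 782.8, 1282 and 434.9 FPKM in controls. The groups were separate although the controls of IFI6 spread widely (-2.23, SE 0.43, limma adjusted p = 0.00383). IFI44L was at 7.45, 6.63 and 4.81 FPKM in mimic samples, against 25.3, 19.3 and 28.4 FPKM in controls (-1.87, SE 0.20, limma adjusted p = 0.000199). IFI44, its paralog, was at 24.4, 25.6 and 21.9 FPKM in mimic samples, against 90.5, 68.7 and 80.6 FPKM in controls (-1.71, SE 0.15, limma adjusted p = 8.20e-05). IFI35, a leucine-zipper protein that is released as a danger signal, overlapped between groups at 13.0 to 23.5 FPKM in mimic samples and 11.3 to 16.9 FPKM in controls (0.28, SE 0.23). It was called higher after median-of-ratios scaling over the tested genes (0.60, adjusted p = 0.0344) and after GC and length correction (0.53, adjusted p = 0.0337).

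Sample 3, which had the highest mitochondrial share in each group, was the lowest of both groups in 17 of the 42 tested members, among them ISG15, BST2, OASL and IFI6, and in 35.6% of all genes tested. With mitochondrial genes left out and the libraries rescaled, 20 members were lower and 4 higher, against 39.6% and 14.5% of all genes, the added ones being IFIT1 (-0.33, adjusted p = 0.0294) and OAS1 (-0.30, adjusted p = 0.0380) on the lower side and OASL (0.38, adjusted p = 0.0350) and USP18 (0.37, adjusted p = 0.0288) on the higher. Without sample 3 of both groups 16 members were lower and 0 higher by limma, against 31.9% and 9.19% of all genes. The 2 that rose with all 6 samples then had adjusted p = 0.0642 (IFIT3) and 0.0561 (BST2).

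Many members lie next to each other in the genome, in 10 loci with at least 2 members within 100 kb, and neighbours in 7 pairs were compared. A ratio of FPKM values between neighbours within a sample does not change when all genes of a library are multiplied by 1 factor. Quantile normalization and the GC and length correction are not of that kind, and the ratios were not worked out after them. The ratio of PARP9 to DTX3L, whose intervals on chromosome 3 (122527924 to 122564577 and 122564238 to 122575203, hg38) overlap head to head on opposite strands, was 0.948, 0.854 and 0.992 in mimic samples, against 2.21, 2.19 and 2.17 in controls. The ratio of OAS2 to OAS3 on chromosome 12 was 0.148, 0.154 and 0.144 in mimic samples, against 0.397, 0.353 and 0.327 in controls. In both pairs the mimic samples formed a tight set well below the controls. The IFIT5 to IFIT3 ratio on chromosome 10 averaged 0.0980 ± 0.00514 in mimic samples and 0.212 ± 0.00911 in controls, and the IFITM1 to IFITM2 ratio on chromosome 11 averaged 0.359 ± 0.0833 in mimic samples and 1.71 ± 0.495 in controls (SD, n = 3 each). The TRIM22 to TRIM5 ratio averaged 0.189 ± 0.0336 in mimic samples and 1.17 ± 0.161 in controls (SD, n = 3 each). On chromosome 7 the SAMD9L to SAMD9 ratio was 0.460, 0.549 and 0.491 in mimic samples, against 0.814, 0.744 and 0.663 in controls. IFI44 and IFI44L on chromosome 1 kept overlapping ratios, at 3.28, 3.86 and 4.56 in mimic samples, against 3.58, 3.57 and 2.84 in controls. These 7 pairs were chosen after their values were seen; in a two-sided exact permutation test 6 had p = 0.1, the smallest that 3 against 3 samples can give (0.117 adjusted over the 7), and the IFI44 pair had p = 0.4. No source used here gives the strand setting of the counting, so reads of TRIM22 and TRIM5, PARP9 and DTX3L, or RSAD2 and CMPK2, which overlap on opposite strands, may be shared.

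**Figure D4:**
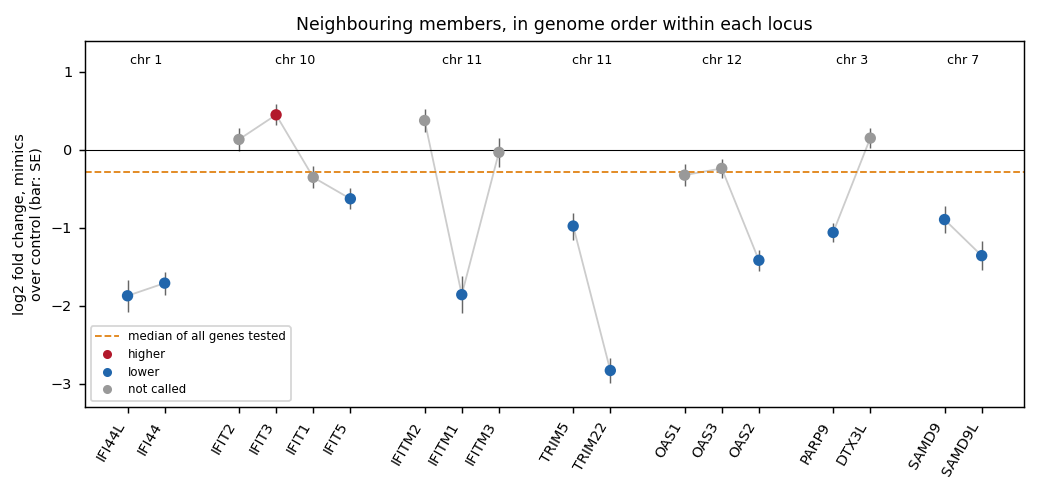
Log2 fold change, mimics over control, with SE bars (vertical axis) for tested members that lie within 100 kb of another, joined by lines in genome order within each locus; colour gives the call and the dashed line the median of all genes tested at -0.29. IFITM1 at -1.86 stands far below IFITM2 and IFITM3, OAS2 at -1.42 below OAS1 and OAS3, and PARP9 at -1.06 below DTX3L.

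Promoters were examined because the ISRE is the promoter element bound by the complex of STAT proteins and IRF9. In windows from 250 bases before to 50 after the start (RefSeq, GRCh38.p14), 37 of the 45 members matched a promoter, and 22 of these held the ISRE core, GAAA repeated after a gap of 2 free bases, on either strand, against 3.57% of 35116 promoters of the same length. The windows below show members that fell (IFI27, IFI44, IFITM1), did not pass the test (ISG15, IFIT1) or rose (IFIT3, BST2). They are written 5′ to 3′ on the gene's strand with the core in capitals, where overlapping matches run together and the opposite-strand form repeats TTTC.
IFI27, chr14:94110608-94110670 (plus): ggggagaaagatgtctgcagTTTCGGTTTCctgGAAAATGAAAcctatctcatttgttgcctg
IFI44, chr1:78649751-78649800 (plus): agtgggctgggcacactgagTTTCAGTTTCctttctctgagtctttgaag
IFITM1, chr11:313980-314063 (plus): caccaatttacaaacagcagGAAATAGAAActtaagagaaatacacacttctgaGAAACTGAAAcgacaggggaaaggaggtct
ISG15, chr1:1013364-1013419 (plus): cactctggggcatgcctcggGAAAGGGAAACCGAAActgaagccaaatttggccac
IFIT1, chr10:89392487-89392549 (plus): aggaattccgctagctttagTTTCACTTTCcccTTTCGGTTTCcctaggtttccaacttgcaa
IFIT3, chr10:89327821-89327904 (plus): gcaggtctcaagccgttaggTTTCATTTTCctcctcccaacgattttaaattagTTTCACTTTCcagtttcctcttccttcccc
BST2, chr19:17405725-17405780 (minus): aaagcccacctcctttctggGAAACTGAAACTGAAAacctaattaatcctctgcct

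The core was found across the whole range of changes. Among the 22 tested members that held it the median log2 fold change was -0.39, with 10 lower and 2 higher, and the 13 tested members without one had a median of -0.41, with 6 lower and 0 higher. IFI27 at -3.31 and BST2 at 0.68, the lowest and the highest of the members, both held 2 matches. The GAS element (TTC and GAA around 3 free bases, a palindrome), bound by STAT dimers, was in 8 of the 37 windows, against 7.66% of all promoters, and the tested members with and without it had medians of -0.45 and -0.37. A match is a description of the letters and not evidence of binding.

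**Figure D5:**
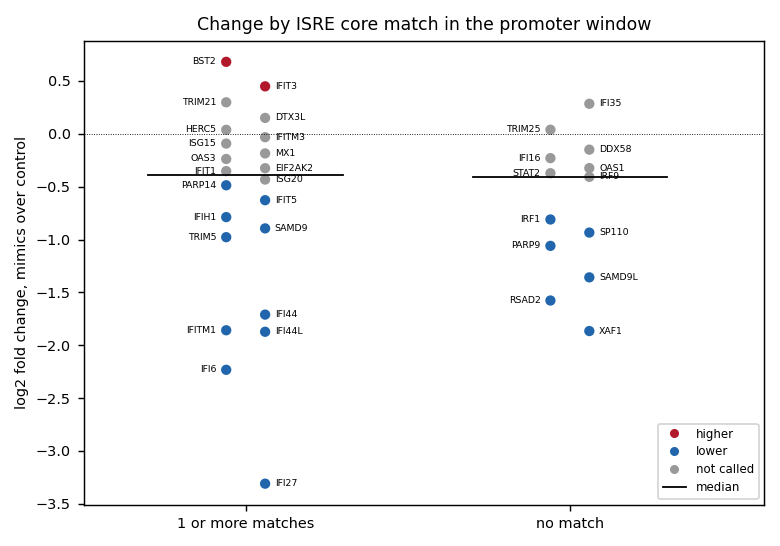
Log2 fold change, mimics over control (vertical axis), of the 35 tested members with a promoter window, split by whether the window holds an ISRE core; each point is a gene, colour gives the call and the line the median. Both columns hold values above and below 0, the 2 members called higher are both in the column with a match, and the columns have medians of -0.39 with a match and -0.41 without.

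For each gene the longest 3′ UTR of any transcript with a coding sequence in GENCODE 29, whatever its type, was scanned for sites of the microRNA. A match to the seed was found in 12 of the 42 tested members, against 31.6% of 11527 genes tested with a 3′ UTR. Of these 12 members 7 were lower and 0 higher by limma, with a median log2 fold change of -0.73, and of the 30 without a match 11 were lower and 2 higher, with a median of -0.30. Over all genes 37.6% of those with a match were lower and 10.9% higher, with a median of -0.27, and of those without a match 30.4% were lower and 15.5% higher, with a median of -0.13. The sites of the 7 lower members are shown, 5′ to 3′ on the transcript, with the match in capitals, since these are the members with both a site and a fall. TRIM5 was the only member with an 8mer (ACTGTGAA); PARP9, RSAD2 and SAMD9L held a 7mer-m8 (ACTGTGA), and IFI44, IFI44L and PARP14 a 7mer-A1 (CTGTGAA).
TRIM5, chr11:5664253-5664282 (minus): ccagcagtgtaACTGTGAAtaacatactta
PARP9, chr3:122536040-122536068 (minus): gatcatttgtgACTGTGAtttagaggtca
RSAD2, chr2:6896565-6896593 (plus): ttgtactttttACTGTGAtgtacagaaat
SAMD9L, chr7:93130853-93130881 (minus): attatttcttcACTGTGAcagcaaagatt
IFI44, chr1:78664030-78664058 (plus): atgttctgtatCTGTGAAaaaataaattt
IFI44L, chr1:78642921-78642949 (plus): cctcttactagCTGTGAAagctagtacta
PARP14, chr3:122718144-122718172 (plus): atcagcccagtCTGTGAAaaaagttaaag
The sites of PARP9 and PARP14 lie further from the gene ends, at 122527924 and 122730840, than the 4342 and 4509 bases of UTR scanned. They may therefore lie outside the 3′ UTR of the main transcripts, and which transcripts these cells make was not tested. The members with the 2 largest falls by log2 fold change, IFI27 and TRIM22, held no match. DTX3L, DDX58, EIF2AK2, OAS1 and IRF7 held a 7mer without passing the test.

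The rest of the interferon pathway was read from lists of 111 genes, of which 81 were tested, 32 were lower and 9 higher. These shares were close to those of all genes (39.6% lower and 12.0% higher). All 21 interferon ligand genes averaged under 1 FPKM, and their sum was 0.675 to 0.912 FPKM in mimic samples and 2.51 to 2.74 FPKM in controls. Controls had more genes at 1 FPKM or more in general, 15109 to 15494 against 13007 to 13250 in mimic samples. Whether the ligand genes differed beyond this was not tested. IFNE, an epithelial interferon, averaged 0.246 ± 0.0886 FPKM in mimic samples and 1.03 ± 0.0576 FPKM in controls, and IFNL1, a type III interferon, averaged 0.309 ± 0.121 FPKM in mimic samples and 0.877 ± 0.223 FPKM in controls (SD, n = 3 each); neither was tested.

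Of 6 receptor genes 1 was lower, against 39.6% of all genes tested. This was IFNGR2 of the interferon-gamma receptor (log2 fold change -0.56, SE 0.19, limma adjusted p = 0.0374). Its call was lost in 12 of the 18 alternatives, among them median-of-ratios scaling over the tested genes (-0.24, adjusted p = 0.277). Of 5 JAK and STAT genes outside the member list 1 was lower and 0 higher by limma, against 39.6% and 12.0% of all genes. Median-of-ratios scaling over the tested genes called 0 lower and 3 higher, against 27.4% and 26.9%. The lower one was JAK2 (-0.45, SE 0.16, limma adjusted p = 0.0480), whose call was also lost after median-of-ratios scaling over the tested genes (-0.19, adjusted p = 0.316). Leaving out any sample except control sample 2 for IFNGR2, or except mimic sample 2 for JAK2, ended these calls, with adjusted p up to 0.133 for IFNGR2 and 0.166 for JAK2.

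Of 16 tested sensing and adaptor genes 6 were lower and 2 higher, against 39.6% and 12.0% of all genes. After median-of-ratios scaling over the tested genes 5 were called in each direction, against 27.4% lower and 26.9% higher of all genes. MAVS, the mitochondrial adaptor of RIG-I and MDA5, averaged 7.79 ± 0.615 FPKM in mimic samples and 15.5 ± 1.04 FPKM in controls (SD, n = 3 each; log2 fold change -0.95, SE 0.13, limma adjusted p = 0.000532). TRAF6 (-0.87) and TANK (-1.03), which link adaptors to kinases, were also lower, TRAF6 not after quantile normalization (-0.29, adjusted p = 0.107). TICAM1, the adaptor of TLR3, was higher at 15.0 ± 2.37 FPKM in mimic samples and 9.09 ± 0.481 FPKM in controls (SD, n = 3 each; 0.68, SE 0.15, limma adjusted p = 0.00541). IRAK1, a kinase of Toll-like receptor signalling, was higher as well (1.02, SE 0.29), with adjusted p = 0.0579 without mimic sample 2 and 0.0545 without control sample 1 by limma.

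Of 13 tested negative regulators 4 were lower and 1 higher on the deposited scale, against 39.6% and 12.0% of all genes. Median-of-ratios scaling over the tested genes and quantile normalization each gave 4 lower and 6 higher. Of all genes 27.4% were lower and 26.9% higher by the scaling, and 22.8% and 24.9% after quantile normalization. TNFAIP3, the ubiquitin-editing enzyme A20, averaged 2.44 ± 0.346 FPKM in mimic samples and 12.2 ± 1.57 FPKM in controls (SD, n = 3 each; log2 fold change -2.11, SE 0.16, limma adjusted p = 4.92e-05). The SUMO ligase genes PIAS1 (-0.92) and PIAS2 (-0.96) were lower and PIAS4 (0.56) higher, and GC and length correction ended the calls of PIAS1 (adjusted p = 0.0558) and PIAS2 (0.0655).

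Of 41 tested further interferon-induced genes 20 fell and 6 rose on the deposited scale, against 39.6% and 12.0% of all genes. Median-of-ratios scaling over the tested genes called 12 in each direction, against 27.4% lower and 26.9% higher of all genes. GBP1, a guanylate-binding protein, averaged 1.05 ± 0.0749 FPKM in mimic samples and 10.0 ± 1.73 FPKM in controls (SD, n = 3 each; log2 fold change -2.75, SE 0.16, limma adjusted p = 1.99e-05). PLSCR1, a phospholipid scramblase (-1.15), and DDX60L, a helicase (-1.13), were lower. NUB1 (0.81, SE 0.15), which lowers NEDD8 levels, WARS (0.56), which encodes tryptophanyl-tRNA synthetase, and TRIM26 (0.55) were higher.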

How the data were processed

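RNA from 6 samples was sequenced, and the authors deposited FPKM per gene for each sample and for the series, per the file headers. FastQC, HISAT2 and hg38 are named by the submitters' processing notes; no source used here gives versions, the FPKM tool, strand setting or annotation release. Each sample's own table equalled its column of the series table. Low FPKM times length (GENCODE 29) piled up at 1 value, but only 8.21% to 11.1% of low values were whole multiples within 1%, so whole reads could not be recovered, count models were not used, and no count interval is given.

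The 14439 genes averaging 1 FPKM or more were fitted with limma 3.58.1 (R 4.3.3, trend, robust) on log2(FPKM + 0.5), without covariates, and p-values were adjusted over all 14439 (Benjamini-Hochberg, 0.05). This scale understates changes of low genes. The step was tested on simulated data with few changed genes and no shift of the whole set. That test does not cover a shift like the one seen here. Symbols, seed sites and promoters came from GENCODE 29 and RefSeq; 56044 of 57836 shared genes had the same position in the files and GENCODE 29. All 45 members are named, with all 6 values for the most abundant of each role and its called members of smallest p (at most 3); of each pathway list up to 3 called genes per direction, or otherwise the 2 most abundant, are named. The members and lists were chosen with earlier results of these data known. Alternatives were other scalings, pseudocounts, filters, a GC and length correction, a replicate block and left-out samples.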

Additional observations from a re-analysis of the deposited data

How the results depend on the processing

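Over 18 alternatives, 625 of 751 values of single members kept their direction and side of the threshold, 49 passed it, 31 no longer passed it and 46 changed sign; of 303 values of pathway genes 269 kept both, 31 no longer passed and 3 changed sign. The number of lower members stayed within 1.5 times of 18, and was 17 to 19 with 1 sample left out, and higher members were then 0 to 3. Of the 14439 genes tested, 4695 to 5732 were lower and 1256 to 1822 higher with 1 sample left out. Higher members numbered 13 after median-of-ratios scaling (genes above 0), 10 when scaled over the tested genes (chosen after seeing the data), 11 after GC and length correction, 4 after quantile normalization or without mitochondrial genes, 1 with no filter and 0 without sample 3 of both groups. The members' median was 0.13, -0.041 and -0.11 under the first 3. All genes higher numbered 5059, 3889 and 3841 under these and 3592 after quantile normalization. All genes lower numbered 3120, 3953 and 3384 under these, 3289 after quantile normalization, 8755 with no filter and 2916 at a mean of 5 FPKM, where the number tested changes too. Pathway genes higher numbered 32, 26 and 21 under these and 19 after quantile normalization, and lower ones 18 and 21 by the 2 scalings, 15 after quantile normalization and 19 at a mean of 5 FPKM.

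Replicate numbers were not taken to pair the samples: numbers 1 and 3 correlated at 0.18 and 0.22, number 2 at -0.05, and mimic 2 correlated most with control 3. With the replicate block 4 members were higher and 20 lower, against 2117 and 5994 of all genes, with IFITM2, OASL, IFIT1 and IRF9 the added calls. The block with GC and length correction gave 10 members higher and a median of -0.11, 3976 and 3402 genes higher and lower, and 22 pathway genes higher.

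Signs turned mainly for members with small differences. Median-of-ratios scaling (genes above 0) gave log2 fold changes of 0.26 for IFI16, 0.15 for IFIT1, 0.47 for IFITM3, 0.41 for ISG15, 0.051 for ISG20, 0.15 for MX1, 0.17 for OAS1, 0.26 for OAS3, 0.34 for DDX58, 0.12 for STAT2, 0.38 for IRF7, 0.081 for IRF9 and 0.16 for EIF2AK2. Scaling over the tested genes gave 0.091 for IFI16, 0.29 for IFITM3, 0.23 for ISG15, 0.034 for MX1, 0.083 for OAS3, 0.17 for DDX58 and 0.22 for IRF7. GC and length correction, with or without the block, gave 0.28 for IFI16, 0.076 for IFIT1, 0.39 for IFITM3, 0.23 for ISG15, 0.32 for DDX58, 0.014 for PARP14, 0.29 for EIF2AK2 and 0.080 for JAK2. Quantile normalization gave 0.63 for MX1, 0.033 for DDX58, 0.21 for IRF7 and 0.20 for JAK2. With 1 sample left out, IFITM3 ranged from -0.15 to 0.11, ISG15 from -0.30 to 0.074, TRIM25 from -0.12 to 0.19 and HERC5 from -0.040 to 0.12, and MX1 was 0.012 without sample 3 of both groups. The cause was not tested. Depth is known only from the pile-up of low values, and 3 samples a group limit the detection of small changes.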
